A study of Mus musculus with 6 samples.

Results

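The 10 genes described here export doxorubicin (Dox) from cells or reduce it chemically, and they were chosen by that known role and by gene symbol from the 45777 genes of the deposited table. The 10 genes were picked with earlier results of these data known. They comprise 5 efflux pumps (Abcb1a, Abcb1b, Abcc1, Abcc5 and Abcg2) and 5 reductases (Cbr1, Cbr3, Akr1a1, Por and Xdh). All 10 had counts in all 6 libraries and passed the filter on low counts (a mean over the libraries of 10 or more), as did 18328 genes in all. Heart RNA came from female mice of the BALB/c nude strain CAnN.Cg-Foxn1nu/Crl, labelled as 6 weeks of age, that carried tumours of the human breast cancer line MDA-MB-231. Treatment began 7 days after the tumour cells were given and lasted 3 weeks. The groups were saline (Control), ginsenoside Rh2 daily at 20 mg/kg (Rh2-20) or 30 mg/kg (Rh2-30), Dox at 2 mg/kg per injection up to 22 mg/kg in total (Dox), and each Rh2 dose given with that Dox course (Rh2-20 + Dox and Rh2-30 + Dox). Every group, Control included, shared the tumour and the Foxn1 mutation, which leaves mice without a thymus and its mature T cells. Each group had 1 library, pooled from the hearts of 5 mice, so no group had a second library.

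Doxorubicin is an anthracycline whose use is limited by injury to the heart. Pumps of the ATP-binding cassette (ABC) family move it out of cells against its gradient, and in the heart P-glycoprotein and ABCG2 are best known from the lining of capillaries. Carbonyl reductases and aldo-keto reductases turn the side-chain ketone of the drug into an alcohol, doxorubicinol. Flavin enzymes such as cytochrome P450 reductase and xanthine oxidoreductase can instead pass a single electron to its quinone ring, and the semiquinone hands that electron to oxygen as superoxide. The question put to the data was whether the RNA of these genes differed with Dox, with Rh2 or with both.

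Xdh and Abcg2 were the members whose levels separated the libraries with Dox from those without. In all 3 libraries with Dox, both genes were above all 3 libraries without it, Xdh by 1.80-fold and Abcg2 by 1.32-fold in edgeR's fit. The other 8 genes overlapped between the libraries with and without Dox, and their fitted differences lay between -0.17 and 0.11 on the log2 scale. Of all 18328 tested genes, 7.85% were above in all 3 libraries with Dox and a further 9.16% were below in all 3. No member passed an adjusted p of 0.05 in edgeR's quasi-likelihood test of Dox, of Rh2 or of their interaction.

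Levels of a gene are given as CPM, its counts scaled to the size of each library with TMM factors from edgeR, so that libraries can be compared for that gene. Library totals were 86164411 to 90621002 counts. Log2 fold changes over several libraries carry edgeR's standard error (SE) and 95% interval, and p-values adjusted by Benjamini-Hochberg over all 18328 genes. The spread behind them is that between libraries with different treatments, since no treatment was repeated.

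The make-up of the heart samples was not the same in all libraries. All 10 cardiomyocyte markers had counts throughout, with a summed level of 24938 to 34923 CPM, and the lung marker Sftpc was at 0 in each library. The 5 atrial markers summed to 45.7 CPM in Control, 62.1 in Rh2-20, 1668 in Rh2-30, 486 in Rh2-20 + Dox, 75.3 in Rh2-30 + Dox and 381 in Dox. Rh2-30 stood apart, with 3716 counts of the fat cell gene Adipoq against 8 to 650 elsewhere and 6442 counts of the brown fat gene Ucp1 against 0 to 12. The summed CPM was 633 to 920 for pericyte and smooth muscle markers, 2060 to 2403 for white fat, 331 to 549 for brown fat, 598 to 874 for skeletal muscle, 3.31 to 13.7 for neutrophils, 2.32 to 125 for liver and 0.466 to 8.69 for lung. By the fat sums Rh2-30 did not stand apart, with 2110 CPM for white fat and 490 CPM for brown fat. A sum follows its most abundant genes, so it can miss a difference in scarcer ones such as Adipoq. Like Adipoq and Ucp1, Plin1 was highest in Rh2-30, with 1217 counts against 2 to 232 elsewhere. Elovl3 had 453 counts there against 0 to 3, while Lep had 0 there and 0 to 4 elsewhere. In whole hearts, fewer cells of a type cannot be told apart from less RNA per cell.

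**Figure D1:**
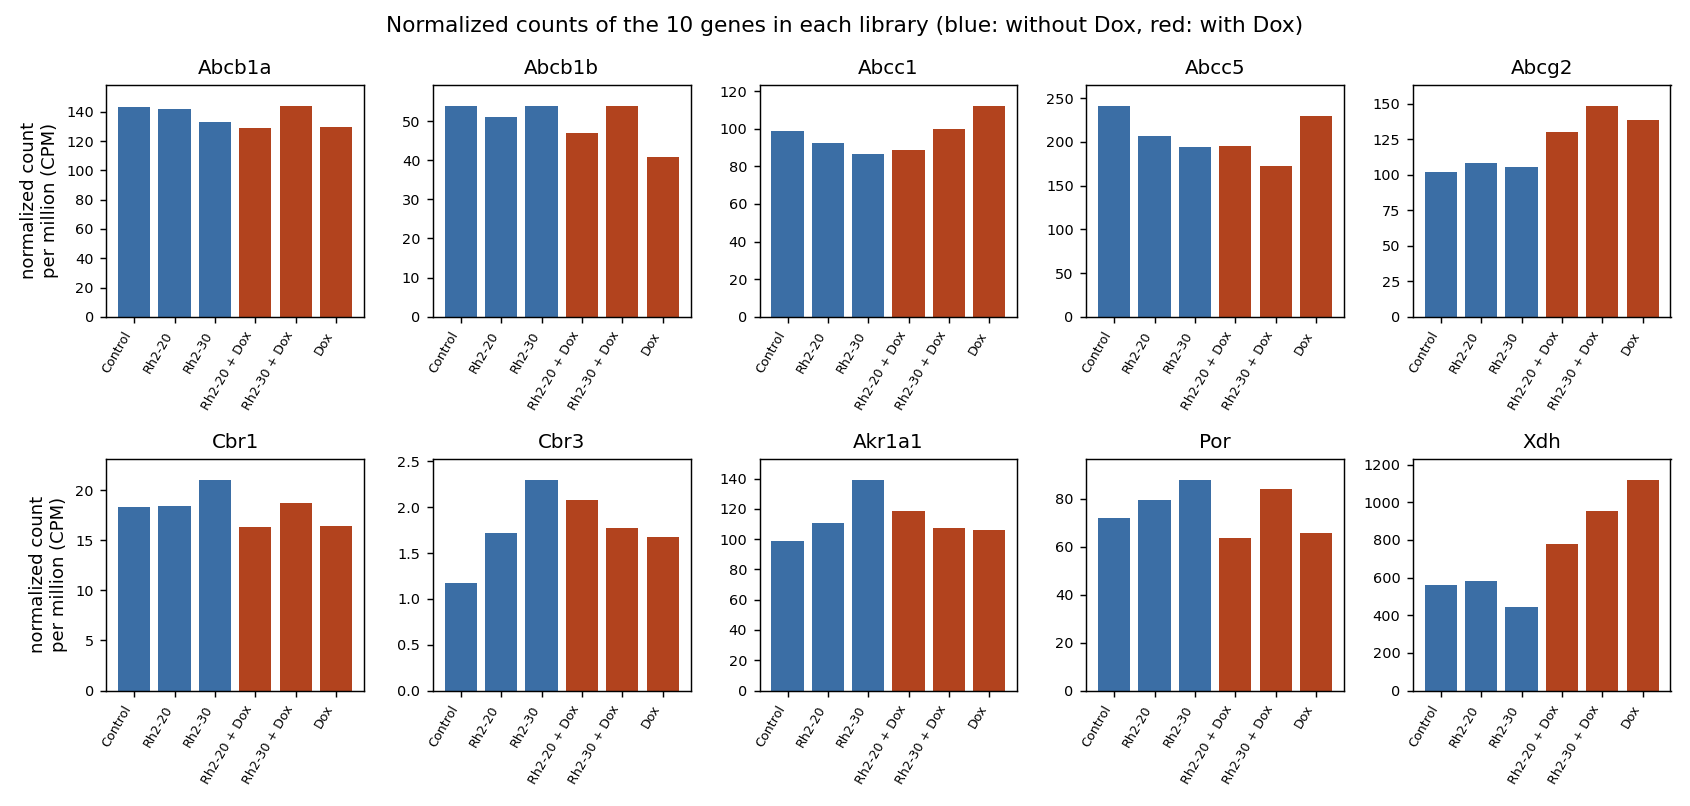
TMM-scaled CPM (vertical axes, linear, from 0) of each of the 10 genes in the 6 libraries, 1 bar for each library, blue without Dox and red with Dox. The red bars stand above all blue bars for Abcg2 (130.5 to 149 against 102 to 108) and Xdh (776 to 1119.6 against 442 to 584).

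Abcg2 encodes the breast cancer resistance protein, a pump of the plasma membrane that exports many drugs. It spans 58584491 to 58692451 on the plus strand of chromosome 6 (RefSeq, GRCm38.p6, the assembly of mm10). Abcg2 had 102 CPM in Control, 108 in Rh2-20, 105 in Rh2-30, 130.5 in Rh2-20 + Dox, 149 in Rh2-30 + Dox and 138 in Dox, from 8511 to 12907 counts. The 3 libraries without Dox lay close together, and all 3 with Dox were above them. The mean was 139 ± 9.05 CPM with Dox against 105 ± 3.16 CPM without (SD, n = 3 each). In edgeR's fit Abcg2 differed by 0.40 on the log2 scale (SE 0.083, 95% interval 0.20 to 0.60), with an adjusted p of 0.235 by edgeR and 0.000955 by DESeq2's Wald test. An exact permutation test, two-sided, on log2 CPM gave p = 0.1, the smallest that 3 libraries against 3 allow. Between single libraries Abcg2 was higher than Control by a log2 ratio of 0.44 in Dox, 0.35 in Rh2-20 + Dox and 0.54 in Rh2-30 + Dox. A counting interval covers the error of the counts alone, and a wider one adds the dispersion between libraries. The wider interval of each of these ratios included 0. With and without Rh2, Abcg2 differed little among the libraries with Dox, by -0.09 in Rh2-20 + Dox and 0.10 in Rh2-30 + Dox relative to Dox.

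RefSeq's promoter table (GRCm38.p6), which gives 250 bases before and 50 after each start, matched 8 of the 10 genes, all but Abcc1 and Xdh. Abcg2 has 3 starts there, each shown 5′ to 3′ because this pump separated the libraries by Dox, and the counts do not tell the starts apart. Capitals mark matches, on either strand, to 5 motifs: the cyclic AMP response element TGACGTCA, the antioxidant response element TGACNNNGC, the xenobiotic response element GCGTG, the CCAAT box CCAAT and the GC box GGGCGG.
Abcg2 start 1, chr6:58584283-58584582, plus strand: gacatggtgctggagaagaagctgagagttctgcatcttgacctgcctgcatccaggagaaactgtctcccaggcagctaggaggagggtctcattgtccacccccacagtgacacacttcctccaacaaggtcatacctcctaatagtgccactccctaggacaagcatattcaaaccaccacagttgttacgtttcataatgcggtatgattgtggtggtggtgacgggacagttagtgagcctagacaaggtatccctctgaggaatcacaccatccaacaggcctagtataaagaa
Abcg2 start 2, chr6:58596422-58596721, plus strand: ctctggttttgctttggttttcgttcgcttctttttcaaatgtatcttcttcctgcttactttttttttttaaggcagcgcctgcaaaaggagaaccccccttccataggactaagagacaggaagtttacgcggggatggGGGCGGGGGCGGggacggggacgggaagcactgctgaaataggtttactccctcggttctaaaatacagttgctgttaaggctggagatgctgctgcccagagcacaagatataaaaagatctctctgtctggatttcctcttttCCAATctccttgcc
Abcg2 start 3, chr6:58640296-58640595, plus strand: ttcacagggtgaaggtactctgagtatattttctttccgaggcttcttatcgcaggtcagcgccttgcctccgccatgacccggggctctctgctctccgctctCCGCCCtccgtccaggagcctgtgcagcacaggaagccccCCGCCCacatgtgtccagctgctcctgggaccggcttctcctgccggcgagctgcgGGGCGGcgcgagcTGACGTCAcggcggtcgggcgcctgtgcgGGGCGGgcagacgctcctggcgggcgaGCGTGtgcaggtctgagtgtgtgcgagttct
Start 1 held no match, start 2 held 2 GC boxes and 1 CCAAT box, and start 3 held the cyclic AMP response element at bases -37 to -30 with 4 GC boxes and 1 xenobiotic response element. Over all 32851 promoters of the table, 1.79% held TGACGTCA, 12.4% TGACNNNGC, 32.4% GCGTG, 37.4% CCAAT and 35.7% GGGCGG. The GC content was 50% at start 1, 48% at start 2 and 67% at start 3. A match describes letters and is not a site shown to be bound.

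P-glycoprotein is the best known exporter of doxorubicin, and in mice it is made from neighbouring genes on the plus strand of chromosome 5. Abcb1a spans 8567091 to 8748575, and Abcb1b spans 8798147 to 8866314. Abcb1a had 143 CPM in Control, 142 in Rh2-20, 133 in Rh2-30, 129 in Rh2-20 + Dox, 144 in Rh2-30 + Dox and 129 in Dox. It varied least of the members, with a coefficient of variation over the libraries of 5.15%, beside 35.1% for Xdh, and its groups overlapped. With Dox it differed by -0.06 on the log2 scale (95% interval -0.26 to 0.14, adjusted p 0.864 by edgeR).
Abcb1b had 53.7 CPM in Control, 51.1 in Rh2-20, 53.8 in Rh2-30, 47.0 in Rh2-20 + Dox, 53.8 in Rh2-30 + Dox and 40.8 in Dox. The Dox library was the lowest and Rh2-20 + Dox the next, while Rh2-30 + Dox lay with the libraries without Dox. The log2 ratio of Dox to Control was -0.40 with a wider interval of -1.08 to 0.28. Over the 3 libraries with Dox the log2 fold change was -0.16 (95% interval -0.43 to 0.10, adjusted p 0.673), and it was -0.07 with the Dox library left out.

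The 2 genes are close copies, so their reads can be hard to tell apart. In the annotated transcripts (GENCODE vM21, GRCm38), 7.72% of all 100-base windows of Abcb1a occur unchanged in another gene, either Abcb1b or Abcb4, and 8.72% of those of Abcb1b occur in Abcb1a. None of the 100-base windows of the other 8 genes occurs in a transcript of another gene. The longest run shared by the pair is 338 bases of coding sequence over exons 13 and 14 of 28 in each gene. It is shown by exon, 5′ to 3′, because a read that falls inside it could come from either gene. No base is in capitals, since every base is identical between the genes.
Exon 13, chr5:8702387-8702572 in Abcb1a and chr5:8824707-8824892 in Abcb1b: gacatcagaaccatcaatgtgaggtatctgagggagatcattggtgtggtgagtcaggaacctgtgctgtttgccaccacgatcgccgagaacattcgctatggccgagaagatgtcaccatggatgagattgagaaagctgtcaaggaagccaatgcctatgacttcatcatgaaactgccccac
Exon 14, chr5:8702793-8702944 in Abcb1a and chr5:8825113-8825264 in Abcb1b: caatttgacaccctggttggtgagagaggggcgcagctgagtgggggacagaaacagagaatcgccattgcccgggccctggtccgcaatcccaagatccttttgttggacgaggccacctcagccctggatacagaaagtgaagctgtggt
Their promoters are shown for comparison, with capitals as above.
Abcb1a start, chr5:8566841-8567140, plus strand: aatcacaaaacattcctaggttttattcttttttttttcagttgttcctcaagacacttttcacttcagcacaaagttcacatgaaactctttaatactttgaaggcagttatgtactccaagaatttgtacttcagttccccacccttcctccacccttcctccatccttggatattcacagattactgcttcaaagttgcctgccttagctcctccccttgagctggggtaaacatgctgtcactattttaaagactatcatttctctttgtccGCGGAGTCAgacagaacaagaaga
Abcb1b start, chr5:8797897-8798196, plus strand: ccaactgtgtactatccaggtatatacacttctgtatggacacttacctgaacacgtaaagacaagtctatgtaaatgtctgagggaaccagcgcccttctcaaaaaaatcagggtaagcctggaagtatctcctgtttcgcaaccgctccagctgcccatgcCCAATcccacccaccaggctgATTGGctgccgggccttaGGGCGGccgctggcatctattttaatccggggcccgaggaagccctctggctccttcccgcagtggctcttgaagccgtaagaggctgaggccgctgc
The Abcb1a window held 1 antioxidant response element, after the start, and had a GC content of 40.3%, while the Abcb1b window held 2 CCAAT boxes and 1 GC box and had 55%.

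Abcb1b made up 27.2% of the counts of the pair in Control (95% Wilson interval 26.6 to 27.9), 26.4% in Rh2-20, 28.7% in Rh2-30, 26.7% in Rh2-20 + Dox and 27.2% in Rh2-30 + Dox. In Dox the share was 23.9% (23.3 to 24.7), the lowest, and its interval did not reach those of the other libraries. Wilson intervals cover counting error alone, and with 1 library per group the difference has no replicate check. With the counts of the pair summed, the log2 fold change with Dox was -0.09 (95% interval -0.30 to 0.12, adjusted p 0.794 by edgeR). An antisense gene, Gm5106, shares 143 exon bases with Abcb1b and had 0 counts in all 6 libraries, and the annotation places another opposite-strand gene, Gm42686, over 553 exon bases of Abcb1a. Whether the counting used the strand is not given in the sources used here, so reads of these antisense genes cannot be told apart from those of the pumps.

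The multidrug resistance-associated proteins are pumps of the ABCC family, which export drugs and their conjugates. Abcc1 (chromosome 16, 14361453 to 14474878) encodes MRP1, which also exports glutathione. It had 98.7 CPM in Control, 92.6 in Rh2-20, 86.8 in Rh2-30, 88.5 in Rh2-20 + Dox, 99.97 in Rh2-30 + Dox and 112 in Dox. The Dox library was the highest and Rh2-20 + Dox was among the lowest, so the groups overlapped, with a log2 fold change of 0.11 (95% interval -0.15 to 0.37, adjusted p 0.776 by edgeR).
Abcc5 (chromosome 16, minus strand, 20331303 to 20426428) encodes MRP5, which exports cyclic nucleotides. It had 241 CPM in Control, 207 in Rh2-20, 194 in Rh2-30, 195 in Rh2-20 + Dox, 172 in Rh2-30 + Dox and 229 in Dox. The libraries with Rh2 were all below Control and Dox, the 2 libraries without Rh2. With Dox as a term, the log2 fold change with Rh2 was -0.29 (SE 0.09, 95% interval -0.51 to -0.07), with an adjusted p of 0.567 by edgeR and 0.0743 by DESeq2's Wald test, so neither test called it. For Dox the log2 fold change of Abcc5 was -0.11 (95% interval -0.42 to 0.21, adjusted p 0.838). The deposited FPKM of Abcc5 showed the same split, with 27.4 in Control and 28.0 in Dox against 15.7 to 24.0 in the libraries with Rh2.

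**Figure D2:**
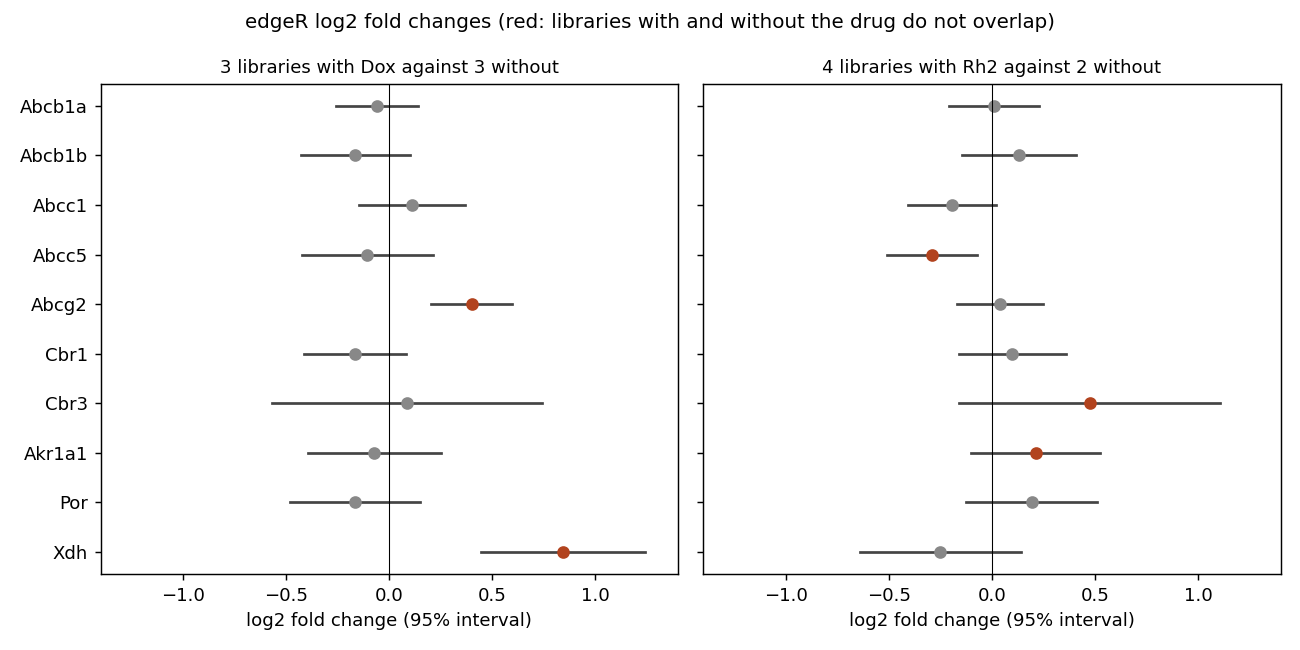
Log2 fold changes of the 10 genes from edgeR (horizontal axes), on the left for 3 libraries with Dox against 3 without and on the right for 4 with Rh2 against 2 without, with 95% intervals as lines and red points where the libraries with and without the drug did not overlap. Xdh (0.85) and Abcg2 (0.40) stand to the right in the Dox panel, and Abcc5 (-0.29) stands to the left in the Rh2 panel.

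Xdh encodes xanthine dehydrogenase, the enzyme that makes uric acid late in purine breakdown and that can pass electrons to oxygen and to quinones. It lies on the minus strand of chromosome 17, from 73883895 to 73950397. Xdh had 560.3 CPM in Control, 584 in Rh2-20, 442 in Rh2-30, 776 in Rh2-20 + Dox, 954 in Rh2-30 + Dox and 1119.6 in Dox. These CPM rest on 41957 to 94097 counts. The Dox library was the highest and Rh2-30 the lowest, and the libraries with and without Dox did not overlap. The mean was 950.1 ± 172 CPM with Dox and 529 ± 75.7 CPM without (SD, n = 3 libraries each). The log2 fold change was 0.85 (SE 0.17, 95% interval 0.45 to 1.24) with an adjusted p of 0.216 by edgeR, short of the threshold. The exact permutation test, two-sided, gave p = 0.1, again the smallest possible. DESeq2's Wald test called Xdh, with an adjusted p of 0.000158.

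The size of the Xdh difference can be set beside those of all genes. Of 18328 genes tested, 397 had a larger log2 fold change with Dox, and 53 did so among the 8741 that averaged 1000 counts or more. Among single libraries, Xdh in Dox was 1.998-fold its level in Control, a log2 ratio of 0.999 with a counting interval of 0.98 to 1.01. In Rh2-20 + Dox the log2 ratio to Control was 0.47 and in Rh2-30 + Dox it was 0.77. The wider interval was 0.32 to 1.67 for Dox, 0.09 to 1.44 for Rh2-30 + Dox and -0.20 to 1.15 for Rh2-20 + Dox, so the first and second leave out 0 and the last does not. Against the Dox library, Xdh was lower in both combinations, with a log2 ratio of -0.53 in Rh2-20 + Dox (wider interval -1.203 to 0.15) and -0.23 in Rh2-30 + Dox (-0.91 to 0.44). The higher Rh2 dose was not the one with the lower Xdh level, and neither difference exceeded the spread between libraries. Against the Rh2 library of the same dose, Xdh was higher by 0.41 on the log2 scale in Rh2-20 + Dox and by 1.11 in Rh2-30 + Dox (wider interval 0.43 to 1.78). Rh2-30, the reference of that last ratio, held the lowest Xdh level of all.

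Rh2-30, which stood apart by its atrial markers and by Adipoq and Ucp1, held the lowest Xdh level. With Rh2-30 left out, the Dox log2 fold change was 0.74 for Xdh and 0.41 for Abcg2. With the summed atrial markers as a term, chosen after the data were seen, it was 0.89 for Xdh (adjusted p 0.0803 by edgeR) and 0.41 for Abcg2 (adjusted p 0.107). With 4 fat markers as a term, chosen in the same way, it was 0.81 for Xdh (adjusted p 0.171 by edgeR) and 0.38 for Abcg2 (adjusted p 0.196).

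Xdh and Abcg2 were the members above in every library with Dox, 2 of 10, where 7.85% of all tested genes were. No member was below in every library with Dox, where 9.16% of all tested genes were. In edgeR's fit 0 of 10 members passed an adjusted p of 0.05 beside 0.0273% of all genes (5 genes), and 1852 genes had an unadjusted p under 0.05. In DESeq2's Wald test 2 of 10 members passed, beside 2.32% of all genes. The members were chosen with earlier results of these data known. The shares here and for Rh2 below are thus a description and not a test.

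Carbonyl reductase reduces the ketone of doxorubicin, and its genes lie close together on the plus strand of chromosome 16. Cbr1 spans 93607837 to 93610349, and Cbr3 spans 93683219 to 93690991. Cbr1 had 18.3 CPM in Control, 18.4 in Rh2-20, 21.05 in Rh2-30, 16.3 in Rh2-20 + Dox, 18.7 in Rh2-30 + Dox and 16.5 in Dox. Rh2-30 was the highest and the libraries with Dox reached into the range of those without. With Dox Cbr1 differed by -0.17 on the log2 scale (95% interval -0.41 to 0.08, adjusted p 0.647 by edgeR).
Cbr3 was scarce, with 98 to 218 counts per library. It had 1.18 CPM in Control, 1.72 in Rh2-20, 2.30 in Rh2-30, 2.07 in Rh2-20 + Dox, 1.77 in Rh2-30 + Dox and 1.68 in Dox. Control was the lowest library and Rh2-30 the highest. Its log2 fold change was 0.09 with Dox (95% interval -0.57 to 0.74, adjusted p 0.942) and 0.47 with Rh2 (-0.16 to 1.11, adjusted p 0.606). All 4 libraries with Rh2 were above both without. With the Control library left out the Dox value of Cbr3 turned to -0.13, and the Rh2 value was 0.20. The log2 ratio of Rh2-30 to Control was 0.96, with a counting interval of 0.62 to 1.33 and a wider interval of 0.21 to 1.72.

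Cbr3 was the minor gene of the pair in each library. It made up 6.04% of their counts in Control (95% Wilson interval 4.98 to 7.31), 8.55% in Rh2-20, 9.85% in Rh2-30, 11.3% in Rh2-20 + Dox (9.86 to 12.9), 8.65% in Rh2-30 + Dox and 9.25% in Dox. The interval of Control lay below those of the other 5 libraries. The longest run that the transcripts of Cbr1 and Cbr3 share is 50 bases, within exon 1 of each. With both summed, the log2 fold change with Dox was -0.14 (95% interval -0.40 to 0.11, adjusted p 0.700 by edgeR).

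Akr1a1 (chromosome 4, minus strand, 116636510 to 116651674) encodes aldehyde reductase, an aldo-keto reductase. It had 99.1 CPM in Control, 111 in Rh2-20, 139 in Rh2-30, 119 in Rh2-20 + Dox, 107 in Rh2-30 + Dox and 106 in Dox. Rh2-30 stood highest, and the 4 libraries with Rh2 were above the 2 without, by as little as 107 against 106. Its log2 fold change was -0.07 with Dox (95% interval -0.39 to 0.25, adjusted p 0.900 by edgeR) and 0.21 with Rh2 (-0.10 to 0.53, adjusted p 0.635). Without the Rh2-30 library, the Dox value of Akr1a1 was 0.09. Rh2-30, which also held the most counts of Adipoq and of atrial markers, was the highest library for Cbr1, Cbr3, Akr1a1 and Por alike. With the term for 4 fat markers the Dox value was 0.0162 for Akr1a1 and 0.25 for Cbr3.
Por (chromosome 5, plus strand, 135670040 to 135735326) encodes cytochrome P450 oxidoreductase, the flavin enzyme that supplies electrons to the P450 system. It had 71.8 CPM in Control, 79.4 in Rh2-20, 87.9 in Rh2-30, 63.6 in Rh2-20 + Dox, 83.9 in Rh2-30 + Dox and 65.8 in Dox. The Rh2-30 + Dox library was above 2 of the 3 libraries without Dox, so the groups overlapped. The log2 fold change was -0.16 with Dox (95% interval -0.48 to 0.15, adjusted p 0.729) and 0.19 with Rh2 (-0.13 to 0.51, adjusted p 0.663).

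By Rh2, 2 of 10 members (Cbr3 and Akr1a1) were above in all 4 libraries with Rh2, where 9.87% of all tested genes were, and 1 of 10 (Abcc5) was below in all 4, where 9.08% were. No member passed an adjusted p of 0.05 for Rh2 in edgeR, where 0% of genes did and 1602 had an unadjusted p under 0.05, and none passed in DESeq2, where 1.32% of genes did and which gave no adjusted p for Cbr3. The Rh2 log2 fold change of Xdh was -0.25 (95% interval -0.64 to 0.14, adjusted p 0.647) and that of Abcg2 was 0.04 (-0.17 to 0.25, adjusted p 0.908). Those of Abcb1a and Abcb1b were 0.01 and 0.13, that of Abcc1 was -0.20 and that of Cbr1 was 0.10. For the interaction, which asks whether the Dox difference was the same with and without Rh2, no member passed (adjusted p at least 0.988 for each), where 0% of genes did and 497 had an unadjusted p under 0.05. The interaction of Xdh was -0.24 on the log2 scale with a 95% interval of -1.15 to 0.66, which leaves room for either sign.

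Single libraries were also compared at the 2-fold cut-off of the study, which the study paired with a raw p under 0.05. Here the fold was used alone, with no test, since each side is 1 library. Shares beside the members are over all 18328 tested genes, of which 8741 averaged 1000 counts or more, as did every member but Cbr3. The 5 comparisons against Control share that library, and the 2 against Dox share the Dox library. At this cut-off 0 of 10 members were called in Dox against Control, where 9.02% of all tested genes were, with Xdh just below it. The members called were 0 of 10 in Rh2-20 (6.15% of all genes), Rh2-30 (10.1%), Rh2-20 + Dox (8.75%) and Rh2-30 + Dox (10.9%) against Control. They were 0 of 10 in Rh2-20 + Dox (6.51%) and Rh2-30 + Dox (10.1%) against Dox. They were 0 of 10 in Rh2-20 + Dox against Rh2-20 (6.96%) and 1 of 10, Xdh, in Rh2-30 + Dox against Rh2-30 (14.5%). On log2 of FPKM plus 1 Xdh was at 0.97 in that last comparison, short of the cut-off, and at 1.002 in Dox against Control, past it. The median log2 ratio of the 10 genes was 0.01 in Dox against Control, beside -0.0046 over all tested genes, and it lay between -0.15 and 0.09 over all 9 comparisons. The interval that adds the dispersion between libraries left out 0 for 1 member in each of 5 comparisons. The member was Xdh in Dox and Rh2-30 + Dox against Control and in Rh2-30 + Dox against Rh2-30, and Cbr3 in Rh2-30 and Rh2-20 + Dox against Control. For this interval the share of all tested genes was not counted, so these members cannot be set beside it.

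**Figure D3:**
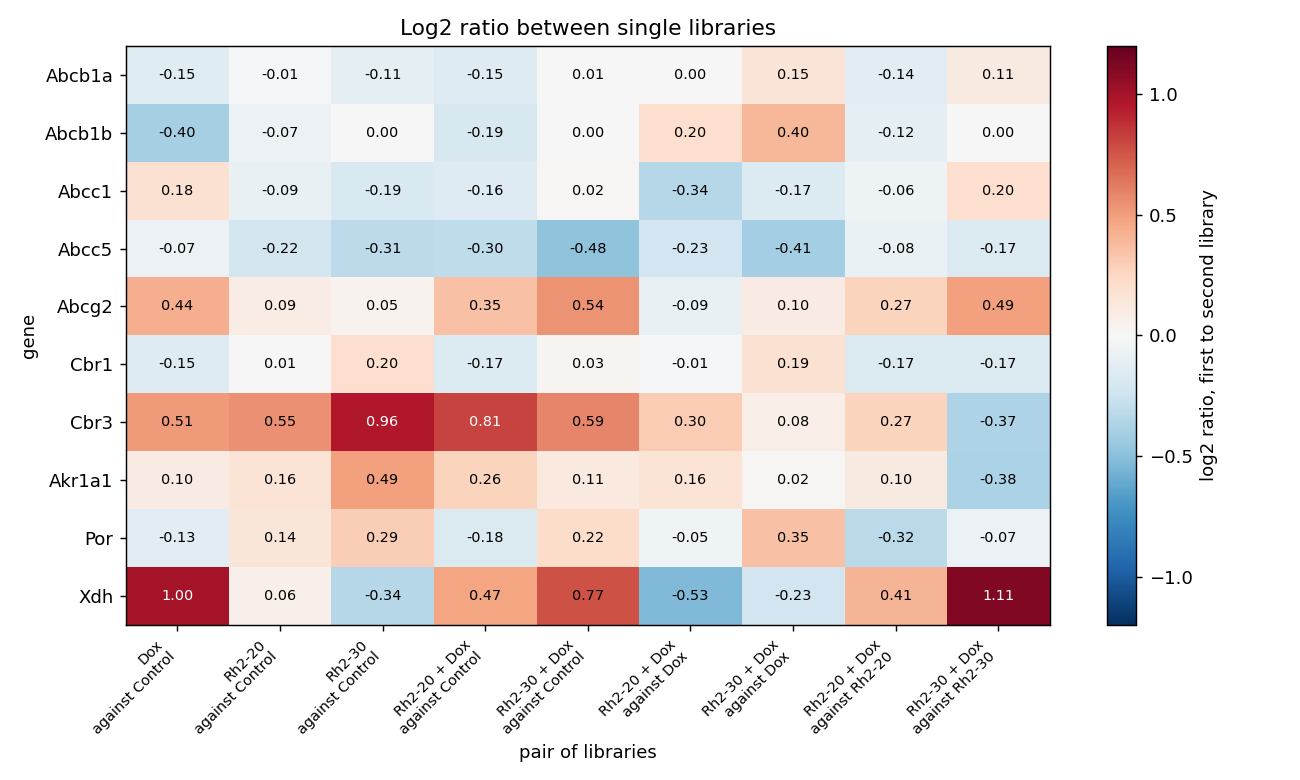
Log2 ratio of each of the 10 genes (rows) between pairs of single libraries (columns), red where the first library is higher and blue where it is lower, with the value in each cell. The deepest red cells are those of Xdh in Rh2-30 + Dox against Rh2-30 (1.11), of Xdh in Dox against Control (0.999) and of Cbr3 in Rh2-30 against Control (0.96).

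Levels between genes were compared per length, by the deposited FPKM. Xdh was the most abundant member, with a mean of 119.5 FPKM (75.9 to 180.1 over the 6 libraries), at or above 98.4% of the tested genes. Next came Akr1a1 with a mean of 61.9 FPKM and Abcg2 with 40.3, then Abcc5 with 23.5, Por with 23.0 and Abcb1a with 20.3. Abcc1 had 13.6 FPKM, Cbr1 12.96 and Abcb1b 8.85, and Cbr3 was last with 1.18. The ranges of neighbours overlapped for Xdh and Akr1a1, for Abcc5 and Por, for Por and Abcb1a and for Abcc1 and Cbr1. Of these, Por was above Abcb1a in all 6 libraries, Xdh above Akr1a1 in 5, Abcc1 above Cbr1 in 4 and Abcc5 above Por in 3. The ranges of the other 5 neighbouring pairs did not overlap. Xdh was first in 5 libraries and second to Akr1a1 in Rh2-30, where Xdh had 75.9 FPKM and Akr1a1 80.7. Among the pumps Abcg2 had the highest FPKM in all 6 libraries. By counts Abcc5 was above Abcg2 in each library, with 14981 to 20078 against 8511 to 12907. The transcripts used above for shared windows are of similar length, 5811 bases for Abcc5 and 5717 for Abcg2. Which of these pumps is more abundant thus depends on the measure, and why the orders differ was not tested.

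**Figure D4:**
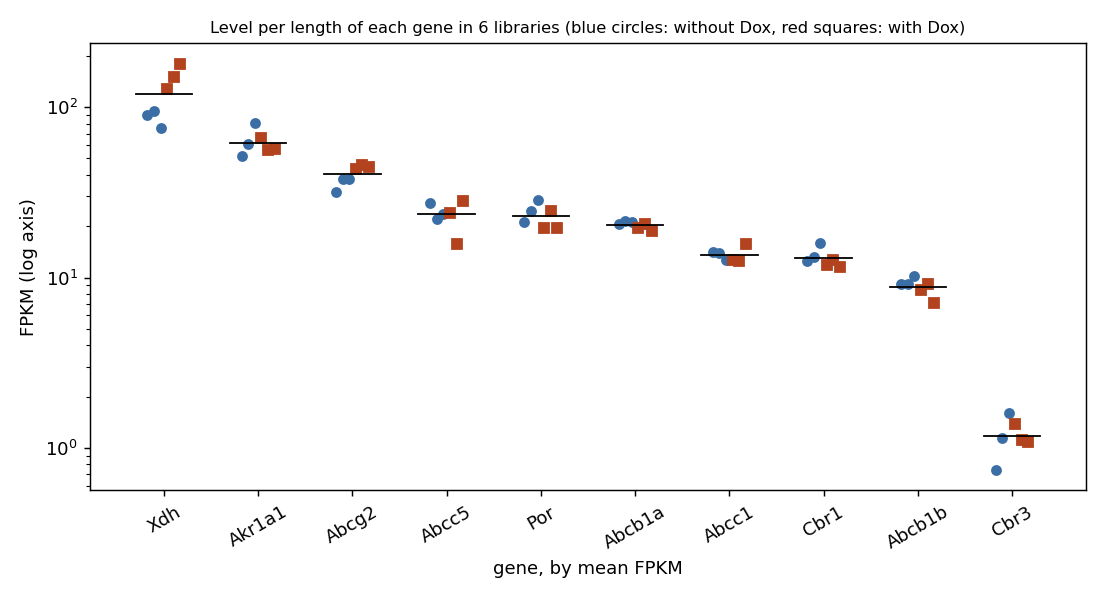
FPKM (log axis) of each gene in the 6 libraries, blue circles without Dox and red squares with Dox, with a line at the mean, ordered by mean. Values run from about 1 FPKM for Cbr3 (mean 1.18) to a mean of 119.5 FPKM for Xdh, and the red squares lie above the blue circles for Xdh and Abcg2.

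Capillary lining is a known site of Xdh and of several of the pumps. The 10 endothelial markers summed to 2357 CPM in Control, 2156 in Rh2-20, 2391 in Rh2-30, 2549 in Rh2-20 + Dox, 1994 in Rh2-30 + Dox and 2344 in Dox, so their summed level overlapped between libraries with and without Dox. In the fit of Dox 6 of these 10 were above 0 and 4 below, with a median log2 fold change of 0.01, and 2 of the 10 were below in every library with Dox, beside 9.16% of all tested genes. The erythroid markers, from red cells, summed to 3630 CPM in Control, 2620 in Rh2-20, 3310 in Rh2-30, 5922 in Rh2-20 + Dox, 1660 in Rh2-30 + Dox and 10560 in Dox. They were highest in Dox, which also held the most Xdh, and lowest in Rh2-30 + Dox, which held the most Abcg2. In the fit of Dox 6 of the 7 were above 0, with a median of 0.89. All 10 cardiomyocyte markers were above 0 with Dox, with a median of 0.19. Of these, 1 was above in every library with Dox, beside 7.85% of all tested genes. Their sum was 31844 CPM in Control, 29589 in Rh2-20 and 24938 in Rh2-30. With Dox it was 29205 in Rh2-20 + Dox, 34923 in Rh2-30 + Dox and 31979 in Dox, so the groups overlapped. Of the 8 pericyte and smooth muscle markers, 6 were above 0, with a median of 0.16. All 8 macrophage markers were below 0 (median -0.53), as were 6 of the 8 fibroblast markers (-0.38), 6 of the 7 white fat markers tested (-1.72), 4 of the 6 brown fat markers (-1.15) and 4 of the 5 atrial markers (-1.29). The fat and atrial values include Rh2-30, a library without Dox that had 1668 CPM of atrial markers, 3716 counts of Adipoq and 6442 of Ucp1. The atrial sum was higher in every library with Dox (75.3 to 486 CPM) than in Control (45.7) and Rh2-20 (62.1). For Rh2-30 + Dox the atrial genes Myl7 and Sln went the other way, with 19 and 0 counts. Control had 56 and 14 counts of these genes and Rh2-20 had 1187 and 326. Dox had 9134 and 1828, and Rh2-20 + Dox had 10613 and 4393. Adipoq had 650 counts in Dox and 56 in Control, but 8 in Rh2-30 + Dox. No marker of these lists passed an adjusted p of 0.05 in edgeR. Apart from the terms for atrial and fat markers above, the part of these markers in the values of Xdh and Abcg2 was not tested.

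Other genes of doxorubicin handling were read from 7 lists, beside a median Dox log2 fold change of -0.01 over all tested genes. No gene of any list passed an adjusted p of 0.05 for Dox or for Rh2 in edgeR. Above in every library with Dox were 3 of 10 other drug exporters, 0 of 7 uptake carriers and 1 of 14 carbonyl reductases. So were 0 of 15 quinone reductases, 0 of 9 regulators, 2 of 18 NRF2 targets and 2 of 10 genes around Xdh. The share of all tested genes was 7.85%. Below in every library with Dox were 1 uptake carrier, 1 carbonyl reductase and 1 NRF2 target, beside 9.16% of all tested genes. Among other drug exporters 10 of 12 were tested, with 9 above 0 and 1 below, and a median of 0.06. Abca2, an ABC transporter of lysosomal membranes, had 133 CPM in Control, 139 in Rh2-20, 115 in Rh2-30, 154 in Rh2-20 + Dox, 189 in Rh2-30 + Dox and 186 in Dox. It was thus above in every library with Dox, by 0.45 on the log2 scale (95% interval 0.17 to 0.73, adjusted p 0.327). Abcb4, which moves phosphatidylcholine into bile in the liver, was at 0.21 (adjusted p 0.757). Abcc3 had the lowest value, -0.11 (adjusted p 0.918). Abcc12 had the highest, 1.95 (adjusted p 0.537), from 0 to 30 counts per library, and was above in every library with Dox. Abcc10 (0.25), named after its value was seen, was also above in all libraries with Dox.

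Of the drug uptake carriers 7 of 12 were tested, with 3 above 0 and 4 below, and a median of -0.13. Slc22a5 encodes the carnitine carrier OCTN2, which heart muscle uses to take up carnitine for fat oxidation, and it was the carrier with the highest level. It had 51.2 CPM in Control, 49.1 in Rh2-20, 45.5 in Rh2-30, 39.1 in Rh2-20 + Dox, 39.3 in Rh2-30 + Dox and 37.0 in Dox. All 3 libraries with Dox were below the other 3, with a log2 fold change of -0.34 (95% interval -0.53 to -0.14, adjusted p 0.303). Slc22a4, a carrier of the same family, was at 0.24 (adjusted p 0.663). Slco1b2 had the highest value, 0.47 (adjusted p 0.919), from 0 to 29 counts.

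Of the other carbonyl reductases 14 of 18 were tested, with 3 above 0 and 11 below, and a median of -0.17. The most abundant were the aldo-keto reductases Akr1b10, at -0.16 (adjusted p 0.663), and Akr1b3, aldose reductase, at -0.02 (adjusted p 0.969). Dcxr, the L-xylulose reductase, was above in every library with Dox at 0.39 (95% interval 0.07 to 0.71, adjusted p 0.415), with 3.30 to 3.82 CPM without Dox and 4.53 to 4.91 CPM with it. Akr1b7 had the lowest value, -1.01 (adjusted p 0.777), from 0 to 24 counts. Akr1c13, named after its value was seen, was below in every library with Dox (-0.82, adjusted p 0.327).

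The other quinone reductases were all tested, 15 of 15, with 10 above 0 and 5 below and a median of 0.05. Ndufs1 and Ndufv1, subunits of complex I of the respiratory chain, were the most abundant at 0.03 (adjusted p 0.978) and 0.20 (adjusted p 0.747). Ndor1, a diflavin reductase related to Por, had the highest value, 0.32 (adjusted p 0.471), and Nos1 the lowest, -1.46 (adjusted p 0.710), from 0 to 42 counts. None of the 15 separated the libraries by Dox. Outside the naming rule, Aox1, the aldehyde oxidase related in structure to Xdh, was at -0.27 (adjusted p 0.662) and Nqo1, the quinone reductase that takes electrons in pairs, at 0.05 (adjusted p 0.966).

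Of the regulators 9 of 10 were tested, with 6 above 0 and 3 below, and a median of 0.04. Nfe2l2, which encodes NRF2, the activator of antioxidant genes, had 98.2 to 99.2 CPM without Dox and 98.9 to 105 CPM with it, a log2 fold change of 0.06 (95% interval -0.12 to 0.23, adjusted p 0.839). Hif1a, the oxygen-regulated factor, was the most abundant by FPKM and had the lowest value, -0.22 (adjusted p 0.725). Nr1i3, a xenobiotic receptor of liver, had the highest, 1.21 (adjusted p 0.561), from 4 to 26 counts. Of the NRF2 targets 18 of 18 were tested, with 8 above 0 and 10 below, and a median of -0.01. Gstm1, a glutathione transferase, had 170 CPM in Control, 206 in Rh2-20, 198 in Rh2-30, 253 in Rh2-20 + Dox, 308 in Rh2-30 + Dox and 232 in Dox. All libraries with Dox were above those without, by 0.47 on the log2 scale (95% interval 0.15 to 0.78, adjusted p 0.344). Gsta4, another transferase, was at 0.08 (adjusted p 0.923) and Gsta2 had the highest value, 0.57 (adjusted p 0.816), from 9 to 50 counts. Me1, the malic enzyme, was the lowest at -0.63 (adjusted p 0.498), with 155 CPM in Rh2-30 and 58.6 to 89.3 in the other libraries. Ephx1 (0.33, above with Dox) and Pgd (-0.27, below with Dox), named after their values were seen, also separated the libraries.

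Xdh acts late in purine breakdown, and 10 of the 11 genes around it were tested, with 8 above 0 and 2 below, and a median of 0.14. Nt5e, the surface enzyme that turns AMP into adenosine, had 19.8 CPM in Control, 18.2 in Rh2-20, 29.4 in Rh2-30, 38.3 in Rh2-20 + Dox, 51.4 in Rh2-30 + Dox and 35.1 in Dox. It was above in every library with Dox, by 0.89 on the log2 scale (95% interval 0.37 to 1.41, adjusted p 0.306), a value of similar size to that of Xdh, though the order of the Dox libraries was not that of Xdh. Adk, adenosine kinase, was at 0.23 (adjusted p 0.694) and Hprt, of purine salvage, at 0.08 (adjusted p 0.880). Ampd3, an AMP deaminase, had the lowest value, -0.11 (adjusted p 0.789). Nt5c2, a cytosolic nucleotidase named after its value was seen, was also above in every library with Dox, at 0.21 (adjusted p 0.503).

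**Figure D5:**
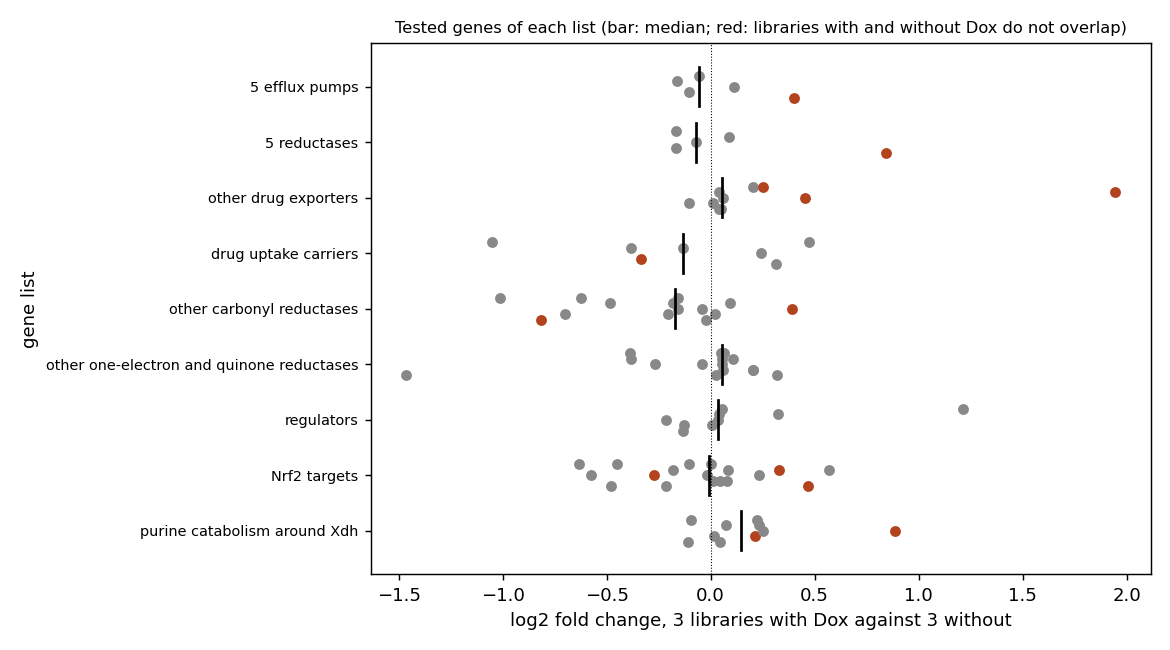
Dox log2 fold change (horizontal axis) of each tested gene of the 5 efflux pumps, the 5 reductases and 7 further lists, with a bar at each median and red points where the libraries with and without Dox did not overlap. The medians of the lists lie close to 0, between -0.17 for other carbonyl reductases and 0.14 for the genes around Xdh, and single genes such as Xdh (0.85) and Nt5e (0.89) stand apart.

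The genes whose levels most resembled each member were found by Pearson's r of log2 CPM over the 6 libraries among the 13960 that averaged 100 counts or more, as a description. For Xdh they were Rgl3 (r = 0.994) and Gapvd1 (0.993), and for Abcg2 they were Gnb3 (0.994) and Ahrr (0.994). Those of Abcb1a were Fbxo30 and Dcaf6, of Abcb1b Rfx3 and Imp3, of Abcc1 Sncaip and AI182371, and of Abcc5 Mov10 and Srgap1. Those of Cbr1 were Bud31 and Tbc1d4, of Cbr3 Rpl30-ps9 and Vit, of Akr1a1 Tm9sf3 and Gm6807, and of Por Tmem223 and Epdr1. With 6 points many genes reach high values, and an r of at least 0.9 was met by 76 genes for Por, the fewest, and 450 for Xdh, the most. All genes were read from the same 6 libraries, so these values share each library's treatment, depth and tissue make-up.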

How the data were processed

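RNA of 6 heart libraries, 1 per treatment and each pooled from 5 hearts, was prepared with the SureSelect XT RNA Direct kit. The authors' deposited read counts are whole numbers per gene without normalization. Per the labels and the study's methods, reads were trimmed with Trimmomatic, aligned to mm10 with HISAT2 2.1.0 and assembled with StringTie 2.1.3b on the UCSC annotation, after demultiplexing with bcl2fastq 2.20.0. Whether counting used the strand is not given in the sources used here. The authors' deposited FPKM values are scaled to transcript length and library size by StringTie, and served here for levels between genes and as an alternative. The authors' deposited TPM values were not used. Each column was matched to its library by its label, and 0 columns were left out for want of a match.

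The software was edgeR 4.0.16, DESeq2 1.42.0 and limma 3.58.1 under R 4.3.3, with Python 3.11.15 and matplotlib 3.10.9 for sequences and plots. Genes averaging 10 counts or more (18328) entered the two-sided quasi-likelihood test of edgeR with TMM factors and Benjamini-Hochberg adjustment over all of them at 0.05. Dox was tested as 3 libraries against 3, Rh2 as 4 against 2 with Dox as a term, and then their interaction. Since each treatment has 1 library, the spread in these tests is that between pooled libraries of unlike treatment. Single libraries were compared as log2 ratios (prior count 0.5) without a test, with a 95% exact binomial interval for counting error, and a wider interval that adds the common dispersion of 0.0285 from the 6 libraries as 1 group. With library totals of 86164411 to 90621002, that dispersion and not counting sets the precision of well counted genes. The fits were tested on simulated data with 200 changed genes.

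The members and all lists were chosen with earlier results of these data known. All members were named, with the 2 genes of highest mean FPKM, the largest and the smallest Dox log2 fold change of each further list and any gene with an adjusted p under 0.05. 1 gene that this rule names is not reported here. Alternatives were other size factors, filters, DESeq2, FPKM with limma, Rh2 dose as a term, summed gene pairs and each library left out. Positions and promoters are RefSeq's (GRCm38.p6) and transcripts GENCODE's (vM21).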

Additional observations from a re-analysis of the deposited data

How the results depend on the processing

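Each treatment had 1 library. Genes called for Dox by edgeR numbered 5, and the number was 2 among genes with a count in every library, 425 by DESeq2's Wald test, 0 with Rh2 dose as a term, 0 by limma on FPKM plus 1, 4 on FPKM plus 0.1, and 0 to 14 with each library left out in turn (14 without Rh2-30 + Dox). DESeq2 called 2 of the 10 genes for Dox (Xdh and Abcg2) where edgeR called none, and it called 242 genes for Rh2 and 38 for the interaction where edgeR called 0. The Dox log2 fold change stayed between 0.71 and 0.97 for Xdh (adjusted p 0.278 to 0.512 by edgeR) and between 0.35 and 0.45 for Abcg2 (0.328 to 0.524) with a library left out. With terms for atrial or white fat markers, chosen after seeing the data, 0 and 27 genes were called, none of them a member, and the Dox value of Akr1a1 turned to 0.0162 with the fat term. Leaving out a library also turned the sign of small values, which ranged from -0.13 to 0.35 for Cbr3 and from -0.17 to 0.0899 for Akr1a1 with Dox, and from -0.0580 to 0.0777 for Abcb1a and from -0.0351 to 0.31 for Abcb1b with Rh2. At 1.5-fold against Control, 1 member was past the cut-off in Dox (Xdh), beside 19.5% of all genes. In Rh2-30 (21.8% of all genes) and in Rh2-20 + Dox (18.3%) it was 1 member each, Cbr3. In Rh2-30 + Dox 2 members were past it, beside 22.7%. Over the 9 comparisons the share of all genes was 13.6% to 27.4%. By FPKM plus 1, 1 member (Xdh) was past 2-fold in Dox against Control (1.07% of all genes) and 0 in Rh2-30 + Dox against Rh2-30 (3.28%). The median share of Abcb1b in its pair was 26.9% by counts and 30.5% by FPKM, which divides by length. The fit with Rh2 dose as a term pairs each library with Dox with that of the same Rh2 dose, and in it the Dox log2 fold change was 0.84 for Xdh (adjusted p 0.496 by edgeR) and 0.40 for Abcg2 (adjusted p 0.504). The causes of these shifts were not tested.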
